A study of Bubalus bubalis with 12 samples.

Results

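The Toll-like receptors TLR1 to TLR10 were followed in the ruminal wall of 12 Italian Mediterranean dairy buffaloes (Bubalus bubalis). The members were taken by gene symbol, and all 10 were found among the 34037 genes of the table. The control group of 6 animals was fed a total mixed ration (TMR), and the treated group of 6 animals was fed TMR with green feed (ryegrass) making up about 30% of the diet. All were adult animals in milk at the same commercial dairy, assigned to the groups at random with regard to parity and milk yield. For each animal 1 library of total RNA was made from the frozen wall, so that the replicates were separate animals. The wall was taken at slaughter and held several cell types, so that fewer cells of a type and less RNA per cell cannot be told apart in these values.

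Toll-like receptors are membrane proteins of the innate immune system that recognise molecules shared by many microbes. TLR1, TLR2, TLR4, TLR5, TLR6 and TLR10 act at the cell surface, where they meet lipopeptides, lipopolysaccharide and flagellin, whereas TLR3, TLR7, TLR8 and TLR9 lie in endosomes and read nucleic acids. Most of them signal through the adaptor MYD88 to NF-kB. The ruminal epithelium is a stratified squamous layer that faces a dense community of bacteria, archaea and protozoa, rich in the lipopolysaccharide that TLR4 senses.

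Levels were given as FPKM (counted fragments relative to gene length and to the animal's total), a scale on which genes can be set side by side. The libraries held between 10531541 and 12948372 counted fragments. The tissue label was checked with squamous markers, and KRT5, the keratin of basal epithelial cells, averaged 1493 FPKM, while the smooth muscle gene MYH11 averaged 2.01 FPKM. Treated replicate 6 and control replicate 6 stood apart from the other animals. Their squamous markers summed to 1693 and 2040 FPKM, the lowest of the treated and of the control group, against a median of 3204 FPKM over the 12 animals. The spread between libraries, as the mean chi-square per gene, was 41.0 to 119 for pairs with treated replicate 6 and 16.6 to 60.5 for pairs of the 10 animals other than both number 6.

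TLR4 was by far the most abundant of the family. It averaged 28.8 FPKM over the 12 animals, took 79.4% of all reads assigned to the 10 receptors, and lay at the 90.9th percentile of the genes above 0. TLR2 (3.21 FPKM) and TLR1 (3.11 FPKM) followed, then TLR5 (1.27 FPKM). TLR6 (0.566 FPKM), TLR3 (0.548 FPKM), TLR10 (0.322 FPKM) and TLR7 (0.293 FPKM) were low, and TLR8 (0.115 FPKM) and TLR9 (0.0330 FPKM) were near the limit of the depth.

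The order held unevenly between neighbours. TLR4 exceeded TLR2 in 12 of 12 animals, by a mean log2 difference in level of 3.37 ± 0.74 (SD, n = 12). TLR1 exceeded TLR5 in 12 of 12 animals, and TLR5 exceeded TLR6 in 12 of 12 animals. TLR2 exceeded TLR1 in only 4 of 12 animals, although its mean was higher, since control replicates 5 and 6 and treated replicate 6 had TLR2 levels of 7.38, 4.80 and 8.07 FPKM. TLR6 exceeded TLR3 in 5 of 12 animals and TLR10 exceeded TLR7 in 8 of 12, so that these neighbours did not differ beyond the spread between animals. TLR3 exceeded TLR10 in 11 animals, TLR7 exceeded TLR8 in 10 and TLR8 exceeded TLR9 in 8. The surface receptors together reached 22.9 to 61.7 FPKM per animal and the endosomal receptors 0.501 to 1.76 FPKM, and the endosomal share of the family's summed level ran from 1.23% in treated replicate 6 to 7.16% in treated replicate 5.

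**Figure D1:**
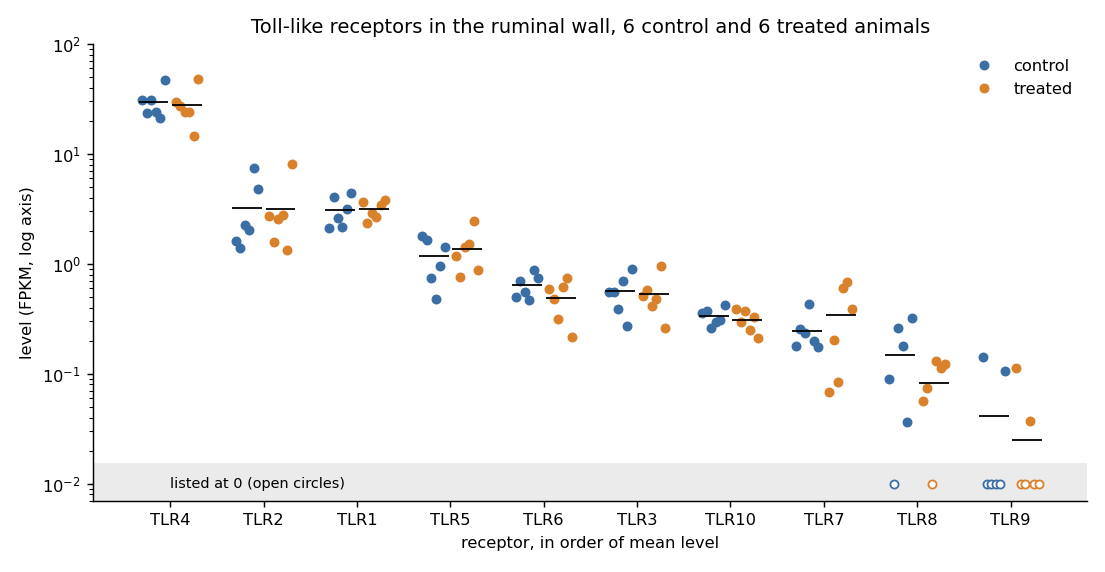
Level of each Toll-like receptor in FPKM on a log axis for the 6 control (blue) and 6 treated (orange) animals, with black bars at the group means and open circles for animals listed at 0. TLR4 sits above the rest of the family in every animal, from 14.5 to 48.5 FPKM, and the control and treated points overlap for all 10 receptors.

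TLR4 (NCBI gene 102407022), the receptor for lipopolysaccharide, ranged from 21.3 to 46.7 FPKM in the control animals, with a median of 27.3 FPKM. In the treated animals it ranged from 14.5 to 48.5 FPKM, with a median of 25.8 FPKM. The groups overlapped almost wholly, and the highest animal of each group was its number 6. The mean of the controls was 29.6 ± 9.31 FPKM and that of the treated animals 28.1 ± 11.3 FPKM (SD, n = 6 each). On the log2(FPKM + 0.01) scale treated minus control was -0.11, with a 95% interval from -0.66 to 0.43, a limma p-value of 0.666 and an adjusted p-value of 0.9996. The exact permutation test of this difference gave p = 0.727.

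The RNA of LY96 and CD14, whose proteins help TLR4 to bind lipopolysaccharide, was present at levels comparable to that of TLR4. That of LBP, another of the listed accessory genes, was lower, with a mean of 7.18 FPKM. Protein was not measured. LY96 (MD-2), the co-receptor that holds the lipid, averaged 45.4 FPKM and exceeded TLR4 in 12 of 12 animals, by a factor of 1.12 to 3.18. CD14, which passes the lipid on, averaged 21.1 FPKM and reached 0.486 to 1.09 times the level of TLR4. LY96, too, was highest in control replicate 6 (66.6 FPKM) and treated replicate 6 (75.0 FPKM), whereas CD14 was highest in treated replicate 1 (32.5 FPKM). Neither passed the test between diets, with log2 differences of -0.01 for LY96 and -0.03 for CD14.

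TLR4 was also set beside markers of macrophages, a cell type known for it. TLR4 exceeded CSF1R, the receptor that defines macrophages, in 12 of 12 animals, by a factor of 3.56 to 26.5 with a median of 8.26. It exceeded MRC1, another macrophage gene, by a factor of 11.8 to 81.3. AIF1, the most abundant of the 8 macrophage markers, averaged 9.29 FPKM and reached 20.9 FPKM, and TLR4 was not set against it animal by animal. The animal with the largest ratio to CSF1R was treated replicate 6, which had the most TLR4 and the least CSF1R (1.83 FPKM), although its macrophage markers together summed to 30.7 FPKM, the highest of the 12 animals. Which cells carried the TLR4 RNA was not measured.

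TLR2 (NCBI gene 102397791), the receptor for bacterial lipopeptides, ranged from 1.40 to 7.38 FPKM in control animals (median 2.13) and from 1.34 to 8.07 FPKM in treated animals (median 2.64). In each group 1 animal lay far above most of the others, control replicate 5 and treated replicate 6, and control replicate 6 was next at 4.80 FPKM. Treated minus control was -0.02 on the log2 scale, with a 95% interval from -1.03 to 0.99 (limma p = 0.959, exact permutation p = 0.976). The spread between animals, a coefficient of variation of 72.0%, was the widest of the 7 receptors tested, and the interval left room for a change of up to 0.488-fold or 1.98-fold.

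TLR1 (NCBI gene 112577604) and TLR6 (NCBI gene 102397128) pair with TLR2 and set which lipopeptides it takes. TLR1 ranged from 2.10 to 4.44 FPKM in control (median 2.88) and from 2.34 to 3.79 FPKM in treated animals (median 3.19), and the log2 difference of 0.06 did not pass the test (95% interval -0.40 to 0.53, limma p = 0.779, exact permutation p = 0.771). TLR6 ranged from 0.473 to 0.878 FPKM in control (median 0.627) and from 0.216 to 0.739 FPKM in treated animals (median 0.532). Only 1 of 6 treated animals was above the control median of TLR6, but the ranges overlapped. The log2 difference of TLR6, -0.45 with a 95% interval from -1.16 to 0.26, was the largest of the 7 receptors tested and also missed the threshold (limma p = 0.196, exact permutation p = 0.190). Without both animals numbered 6 it was -0.20.

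TLR1 was the more abundant partner in 12 of 12 animals, at 3.56 to 17.5 times the level of TLR6. This ratio was 4.81 ± 0.942 in control and 7.82 ± 5.10 in treated animals (SD, n = 6 each), with its highest value in treated replicate 6, and was described without a test because it was chosen after the values were seen. TLR1, TLR6 and TLR10 have overlapping spans in the RefSeq annotation of the NDDB_SH_1 assembly. Their sequences were not compared here. Their counts are uncertain to the extent that reads fit more than 1 of them.

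TLR10 (NCBI gene 102412041), the least understood of the surface receptors, was low but even. It ranged from 0.262 to 0.424 FPKM in control and from 0.210 to 0.388 FPKM in treated animals, with 15 to 26 reads per animal. Its coefficient of variation of 19.6% was no larger than the 21.4% that counting error alone gives at its mean of 21.8 reads. The log2 difference was -0.13 (exact permutation p = 0.442). TLR5 (NCBI gene 102390405), the receptor for flagellin, ranged from 0.476 to 1.78 FPKM in control (median 1.20) and from 0.753 to 2.47 FPKM in treated animals (median 1.31). Its log2 difference of 0.25 had a 95% interval from -0.53 to 1.04 and did not pass the test (limma p = 0.501, exact permutation p = 0.524). The highest TLR5 was in treated replicate 5, the animal with the lowest TLR4.

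Among the endosomal receptors, TLR3 (NCBI gene 102394367), which reads double-stranded RNA, was the most abundant. It ranged from 0.272 to 0.897 FPKM in control (median 0.556) and from 0.262 to 0.961 FPKM in treated animals (median 0.497), and the log2 difference was -0.07 (95% interval -0.85 to 0.71, limma p = 0.842, exact permutation p = 0.831). TLR7 (NCBI gene 102409386), which reads single-stranded RNA, ranged over 10.1-fold between animals. Its treated animals fell both lowest and highest, from 0.0683 to 0.689 FPKM (median 0.294), around the control animals at 0.175 to 0.434 FPKM (median 0.218). The log2 difference of TLR7 was 0.06 with an interval from -1.17 to 1.29 (limma p = 0.922, exact permutation p = 0.907). TLR3, TLR6 and TLR7 passed the filter of 40 depth-scaled reads through a single animal each. This was treated replicate 5 for TLR3 and TLR7, and control replicate 5 for TLR6.

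TLR8 (NCBI gene 102408845), which lies next to TLR7 in the RefSeq annotation and also reads single-stranded RNA, had 47 reads in the control and 27 in the treated group and was listed at 0 in 2 animals. Its levels ran from 0 to 0.321 FPKM in control (median 0.133) and from 0 to 0.131 FPKM in treated animals (median 0.0944), and the log2 difference of -0.43 had an exact permutation p of 0.641. TLR9 (NCBI gene 102414149), which reads bacterial DNA, had 13 reads in the control and 8 in the treated group. It was listed at 0 in 8 of 12 animals, and 9 of 12 had 3 reads or fewer. A level of 3 reads corresponded to between 0.0516 and 0.0635 FPKM for TLR9, so that its level in most animals could not be told from 0 at this depth. The permutation p of TLR9 was 0.848 (exact test), and a change between diets was not detectable.

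No Toll-like receptor passed the test between diets. Of the 7 receptors that passed the filter, limma on log2(FPKM + 0.01) gave 0 with a nominal p-value below 0.05 and 0 with an adjusted p-value below 0.05. Over all 12742 genes tested, 162 (1.27%) had a nominal p-value below 0.05, of which 102 (0.801%) were higher and 60 (0.471%) lower in treated animals, and 0 (0%) had an adjusted p-value below 0.05. The exact rank-sum test and limma voom on reads called 187 and 145 genes at a nominal p-value below 0.05 and 0 after adjustment. In mean log2 level 3 of the 10 receptors were higher and 7 lower in treated animals, and for 0 of 10 did the groups fail to overlap, against 0.0549% of all genes tested. The median log2 difference was -0.02 over the 7 receptors tested and 0.01 over all genes tested. The receptors were measured with less precision than most genes, with a median standard error of 0.36 against 0.21.

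**Figure D2:**
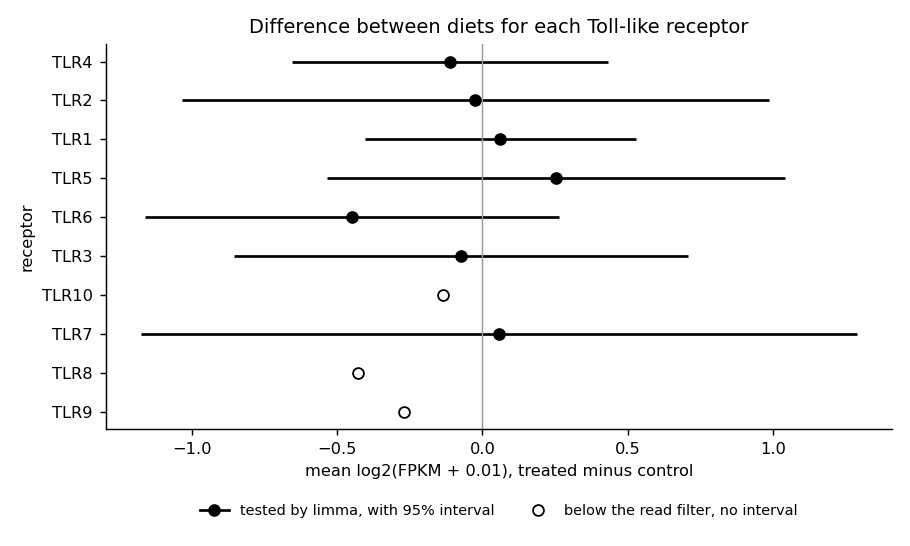
Difference in mean log2(FPKM + 0.01) between treated and control animals (n = 6 each) for each receptor, with 95% limma intervals for the 7 receptors that passed the filter and open circles for the 3 that did not. Every interval crosses 0, from the narrowest for TLR1 (-0.40 to 0.53) to the widest for TLR7 (-1.17 to 1.29).

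The genes that act with and below the receptors were examined by role. Of 46 genes 42 passed the filter, with 0 higher and 1 lower in treated animals at a nominal p-value below 0.05, against 0.801% and 0.471% of all genes tested, and 0 after adjustment. The median log2 difference of the 42 genes was -0.01. The gene that was lower was HSP90B1 (gp96), a chaperone of the endoplasmic reticulum that folds most Toll-like receptors along with many other proteins. HSP90B1 ranged from 125 to 184 FPKM in control and from 106 to 133 FPKM in treated animals, and the groups overlapped. The controls averaged 148 ± 21.2 FPKM and the treated animals 120 ± 11.7 FPKM (SD, n = 6 each). The log2 difference was -0.30 ± 0.11 (SE), with a limma p-value of 0.0197, an adjusted p-value of 0.9996 and an exact permutation p of 0.0152. The difference kept its direction when each animal was left out in turn (-0.34 to -0.23), with a limma p-value of 0.0502 without control replicate 4 and below the threshold in the other 11 fits. HSP90B1 is also among the genes that the study picked from these animals, so that it is not independent evidence.

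The partners of HSP90B1 in handling the receptors were lower in level. CNPY3, its co-chaperone, averaged 6.94 FPKM with a log2 difference of -0.06, and UNC93B1, which carries endosomal receptors to their place, averaged 2.08 FPKM. Among accessory receptors CD180, a relative of TLR4 on B cells, was listed at 0 in all 12 animals. The B cell markers CD79B and MS4A1 had 0 and 5 reads in total over the 12 animals.

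The adaptors were expressed at a few FPKM. MYD88, shared by most of the family, averaged 4.84 FPKM (log2 difference 0.06), and TICAM2, which leads TLR4 to the interferon branch, averaged 3.39 FPKM (log2 difference -0.00). TIRAP, which bridges TLR2 and TLR4 to MYD88, was not called by limma (log2 difference 0.27, p = 0.129), although its exact permutation p was 0.0368. Among kinases and ligases UBE2N averaged 81.7 FPKM and TRAF6 averaged 22.2 FPKM. This pair builds the ubiquitin chains that carry the signal, and their log2 differences were -0.02 and -0.01. All 17 genes of this role passed the filter and none was called, with log2 differences from -0.17 to 0.13.

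Of the transcription factors IRF3 averaged 17.1 FPKM (log2 difference -0.02) and NFKB1 averaged 14.9 FPKM (log2 difference 0.04). The inhibitors were led by NFKBIA, which holds NF-kB in the cytoplasm, at 51.3 FPKM (log2 difference -0.07), and by TOLLIP, which binds receptor tails, at 28.1 FPKM (log2 difference -0.06). IRAK3, a kinase-like brake on MYD88 signalling, had the largest positive difference of the list, 0.36, and did not pass the test (limma p = 0.0628, exact permutation p = 0.0541). LBP, UNC93B1, CD180, IRAK3 and TIRAP were named after their values were seen.

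**Figure D3:**
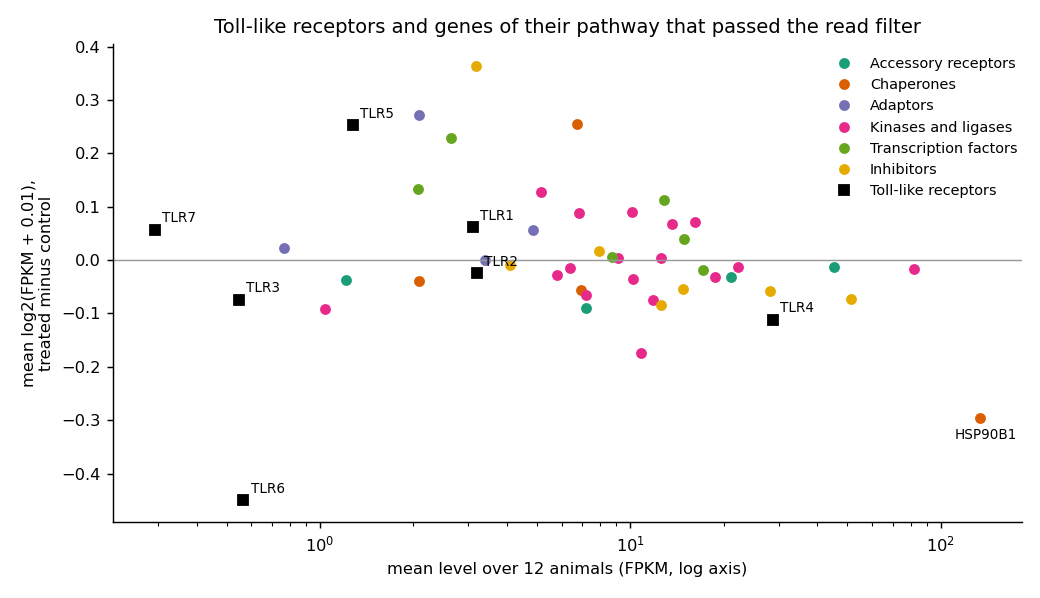
Mean level over the 12 animals in FPKM (log axis) against the log2 difference between treated and control animals, for the 7 receptors tested (black squares) and the 42 pathway genes tested (circles, coloured by role). HSP90B1 lies alone at the lower right with a log2 difference of -0.30 at 134 FPKM, and TLR6 is the lowest receptor at -0.45.

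How the receptors varied with the makeup of the samples was examined with marker scores, the mean log2(FPKM + 0.01) of each cell type's markers. Of the 80 pairs of a receptor with 1 of 8 marker lists, 0 had an adjusted permutation p below 0.05 by Pearson's r and 1 by Spearman's rho. That pair was TLR8 with the macrophage markers (8 genes, among them CSF1R, MRC1 and C1QA). Over the 12 animals r was 0.819 (permutation p = 0.00075, adjusted p = 0.0600) and rho was 0.872 (permutation p = 0.00044, adjusted p = 0.0352). Within the diet groups r was 0.946 in control and 0.666 in treated animals, and without the 2 animals farthest from the median of the score it was 0.917. The relation rested on 0 to 15 TLR8 reads per animal. TLR8 is known from macrophages and other myeloid cells. TLR8 also followed the fibroblast markers, with rho = 0.802 (permutation p = 0.00262, adjusted p = 0.105) and r = 0.593 (permutation p = 0.0424, adjusted p = 0.579), 0.910 within the control and 0.307 within the treated group. Without the 2 animals farthest from the median of the fibroblast score r was 0.869 (permutation test, adjusted p = 0.0168). With the squamous score TLR8 had rho = -0.774 (permutation p = 0.00467, adjusted p = 0.125) and r = -0.448 (permutation p = 0.139, adjusted p = 0.774). Without the 2 animals farthest from the median of the squamous score r was -0.378. The macrophage score did not differ between diets beyond the spread (treated minus control -0.26, exact permutation p = 0.511).

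TLR4 and TLR2 were both high in the 2 animals with the lowest squamous markers, but TLR2 was nearly as high in control replicate 5 (7.38 FPKM), whose squamous markers summed to 3452 FPKM. TLR4 had r = -0.691 with the squamous score (permutation p = 0.0149, adjusted p = 0.399) and rho = -0.580 (permutation p = 0.0521, adjusted p = 0.834), and TLR2 had r = -0.581 (permutation p = 0.0435, adjusted p = 0.579) and rho = -0.413 (permutation p = 0.186, adjusted p = 0.848). Neither passed the adjustment, and both rested on control replicate 6 and treated replicate 6, without which r was -0.05 for TLR4 and 0.05 for TLR2. In those 2 animals TLR4 was 46.7 and 48.5 FPKM, and in the other 10 it ran from 14.5 to 31.2 FPKM. The squamous score did not differ between diets beyond the spread (0.02, exact permutation p = 0.933). Without both animals the log2 difference between diets was -0.15 for TLR4 and -0.18 for TLR2, and 0 of the 7 receptors passed the nominal threshold.

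**Figure D4:**
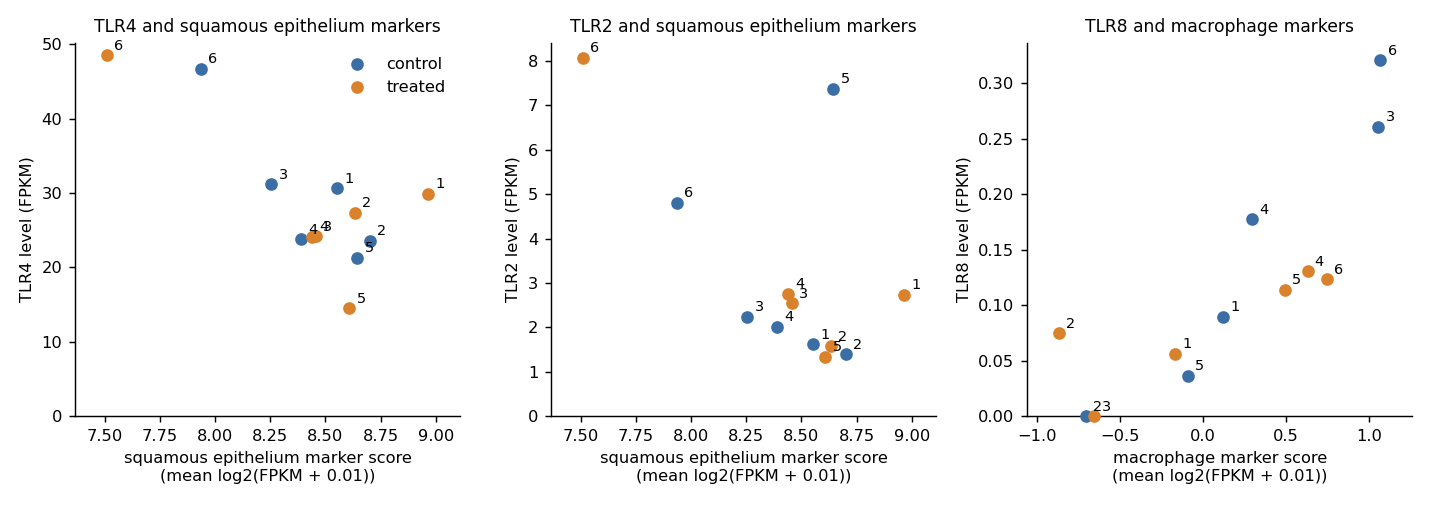
TLR4 and TLR2 against the squamous epithelium marker score and TLR8 against the macrophage marker score, with levels in FPKM on linear axes and 1 point per animal (control blue, treated orange) labelled with its replicate number. Both animals numbered 6 lie at the upper left for TLR4, at 46.7 and 48.5 FPKM, while TLR8 rises along the macrophage score up to 0.321 FPKM in control replicate 6.

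The smooth muscle markers were lower in treated animals, by 1.17 on the log2 scale (exact permutation p = 0.0411, not adjusted over the 8 lists). Their summed levels were 13.2 to 31.5 FPKM in control and 4.67 to 23.8 FPKM in treated animals. The list holds MYH11 and DES, which the study reported as lower in these same treated animals, so that this difference is not independent evidence. TLR5 had r = 0.402 with this score over all animals (permutation p = 0.197, adjusted p = 0.786; rho = 0.434, permutation p = 0.164, adjusted p = 0.848), 0.662 within the control and 0.762 within the treated group. Without the 2 animals farthest from the median of the score r was 0.379. The score includes CNN1, which was listed at 0 in 2 animals, where the pseudocount set its value. The fit with this score was not repeated with another pseudocount. With the score as a covariate, the difference of TLR5 between diets was 0.89 and passed the nominal threshold, as did 194 (1.52%) of the 12742 genes in that fit, of which 0 passed after adjustment. Its limma p-value, from the fit across all genes on 12 animals, was 0.0358, and no other receptor passed under either covariate. T cell markers summed to 12.7 to 35.6 FPKM. With their score TLR8 had rho = 0.536 (permutation p = 0.0748, adjusted p = 0.848) and r = 0.723 (permutation p = 0.00908, adjusted p = 0.363). Without the 2 farthest animals it was 0.488. Of the 5 neutrophil markers in the table, S100A8 and S100A9, which squamous epithelium makes as well, made up nearly all of the summed level. The receptor genes CXCR2 and CSF3R averaged 2.67 and 0.569 FPKM, with 1183 and 370 reads in total, and the granule gene MPO was listed at 0 in all animals. No receptor had a nominal permutation p below 0.05 with the neutrophil score.

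The receptors were also correlated with one another over the animals. Of 45 pairs 2 had a nominal permutation p below 0.05 by Pearson's r and 0 after adjustment by either measure. Pairs that did not pass were not shown to vary independently, since some receptors had few reads (TLR8 0 to 15 and TLR9 0 to 8 per animal). TLR2 with TLR4 had r = 0.537 (permutation p = 0.0701, adjusted p = 0.649), 0.122 within the control and 0.874 within the treated group. TLR2 with TLR3 had r = -0.611 (permutation p = 0.0345, adjusted p = 0.649; rho = -0.636, permutation p = 0.0298, adjusted p = 0.637), which was -0.02 without control replicate 5 and treated replicate 6. TLR7 with TLR10 had r = -0.577 (permutation p = 0.0499, adjusted p = 0.649; rho = -0.657, permutation p = 0.0235, adjusted p = 0.637), which was -0.66 without treated replicates 1 and 5.

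The genes tested whose level over the 12 animals followed each receptor most closely were also sought. TLR8, TLR9 and TLR10 were below the filter and so could not be among them. The other receptors were few among the 12742 genes, so that their absence from the closest genes says little. For TLR4 the highest Pearson's r was with CD46 (0.944), a membrane regulator of complement, followed by DERL1 (0.942), a protein of the endoplasmic reticulum, and CLDND1 (0.938). Without the 2 animals farthest from the TLR4 median these were 0.857, 0.858 and 0.833. For TLR2 they were ABCD3 (0.947), a peroxisomal transporter, and PIP (0.914), a secreted epithelial protein. TLR1 was closest to GPR160 (0.911), TLR6 to ACBD6 (0.945), TLR10 to UBXN7 (0.922), TLR5 to CATSPER3 (0.893), TLR3 to CEP295 (0.879), TLR7 to NUTF2 (0.887), TLR8 to SUCLA2 (0.905) and IFNGR1 (0.899), and TLR9 to SLF1 (0.843). Each is the highest of 12742 genes over 12 animals, except DERL1, PIP and IFNGR1 (rank 2 for their receptor) and CLDND1 (rank 3), and is given as a description, without a test.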

How the data were processed

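Ruminal wall RNA of 12 animals (6 control, 6 treated) was sequenced as stranded total RNA, 1 library per animal. The authors trimmed reads with Trimmomatic 0.39, mapped them to UOA_WB_1 (STAR 2.5.2b) and assigned them to genes by strand with featureCounts 2.0.0 from a mapping quality of 30 upwards. The authors deposited FPKM; the tool and gene lengths behind them are not given in the sources used here. Of 16 columns 12 matched the labels, and 4 were not used. The depth was recovered from the FPKM, whose values are whole multiples of 1 read (largest deviation 9.3e-10).

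The test was limma 3.58.1 in R 4.3.3 (eBayes with a trend) on log2(FPKM + 0.01). It covered 12742 genes, those with 40 or more depth-scaled reads in any animal. P-values were adjusted over all of these by Benjamini-Hochberg. A fold change on this scale understates that of low genes. Single genes were also tested by a two-sided exact permutation test (924 assignments, smallest possible p 0.00216), and correlations with 100000 two-sided permutations in Python 3.11.15 (numpy 2.4.6, scipy 1.17.1, pandas 2.3.3). Limits of 3 reads cover counting error only. The methods were tested on simulated data.

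The members, the pathway list and the marker lists were chosen with earlier results of these data known. Genes named are the 10 receptors, the pathway genes with a nominal p-value below 0.05 and the 2 highest of each role, and the 3 genes most like each receptor by Pearson's r, of which the closest are printed. A few genes outside this rule are marked in the text. Alternatives were other pseudocounts, filters, scaling, tests, covariates, a replicate block and leaving out animals. The omission of both animals numbered 6 was chosen after seeing the data.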

Additional observations from a re-analysis of the deposited data

Results flagged for a closer look

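In 3 of 20 groups looked at, the highest animal lay apart from the others of its group by more than Dixon's limit. Chance passes this limit in about 1 group in 20 where values are normally distributed. That was not shown for these levels, some of which rest on few reads, so that the count is not measured against this rate. TLR2 was 8.07 FPKM in treated replicate 6, against 2.76 FPKM in the next treated animal. TLR7 was 0.434 FPKM in control replicate 4, against 0.257 FPKM in the next control animal. TLR9 was 0.112 FPKM in treated replicate 1, against 0.0369 FPKM in the next treated animal, on 6 and 2 reads.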

How the results depend on the processing

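No alternative gave a gene with an adjusted p-value below 0.05. The count of genes with a nominal p-value below 0.05 (162) moved to 562 with all 22972 genes above 0, 301 with genes that reached 0.1 FPKM in 6 or more animals, 325 with the replicate block, 244 with the macrophage score as covariate, 317 without both animals numbered 6, and 145 to 331 when 1 animal was left out, the highest without treated replicate 6. The block called 0 receptors. Same-numbered animals are different animals, and the labels do not say that they share a pen or day. The replicate numbers are those of the sample descriptions. The sample titles number all treated animals and control replicate 6 differently, so that pairs by title would be others. Of the pairs with the same description number, 4 of 6 correlated above 0.1 in their deviations (mean 0.212, lowest -0.0116). Of the pairs with other description numbers 5 of 30 did (mean -0.0391), and 4 of 6 control animals correlated best with their own number. Pairs by title were not examined. Since not every pair was above 0.1, the block was kept as an alternative. The count of receptors passing the nominal threshold was 0 except 1 (TLR5) with the smooth muscle covariate, where 194 of 12742 genes passed it. Pairs of receptor and marker score past the adjusted threshold were 0, 1 after centring within diets and 2 without the 2 farthest animals. The log2 difference turned sign for TLR2 with the macrophage covariate (0.11) and by medians (0.31), for TLR3 with the smooth muscle covariate (0.071), and without both animals numbered 6 for TLR3 (0.26), TLR7 (-0.15), TLR9 (0.38) and TLR10 (0.035); r of TLR2 with the squamous score became 0.052 without the 2 farthest animals. When 1 animal was left out, it ran from -0.036 to 0.18 for TLR1, -0.35 to 0.27 for TLR2, -0.26 to 0.11 for TLR3, -0.29 to 0.060 for TLR4, -0.23 to 0.40 for TLR7, -1.08 to 0.14 for TLR8 and -0.80 to 0.27 for TLR9. The cause was not tested. TLR5 stayed positive and TLR6 negative under all 24 alternatives run. These alternatives reuse the same animals, so that a constant sign is not further evidence. Over these TLR5 ran from 0.025 (without control replicate 4) to 0.89 (with the smooth muscle covariate), and was 0.062 without treated replicate 5. TLR6 ran from -0.59 (without treated replicate 5) to -0.14 (with a pseudocount of 1), and was -0.35 without control replicate 5. When 1 animal was left out, TLR5 ran up to 0.40 and TLR6 up to -0.24, the latter without treated replicate 6. Depth limits TLR8 and TLR9 most.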
